A study of Homo sapiens with 12 samples.

Results

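The genes described here are 35 genes of cholesterol and fatty acid synthesis, taken by name from the 26475 gene symbols of the expression table. They hold 5 regulators, 8 enzymes of the mevalonate and isoprenoid steps, 11 enzymes from squalene to cholesterol, 2 proteins of sterol movement and 9 genes of fatty acid synthesis. All 35 were in the table and all 35 were kept by the filter on low counts in each cell line. The genes were chosen by name, with the log2 fold changes between BAY-850 and DMSO in the same libraries known, so the responses of its genes to BAY-850 are given as a description with standard errors and without p-values, and their number is not read against that of other genes.

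RNA was sequenced from PA-1, a human line from an ovarian teratocarcinoma, and from SK-OV-3, a human line from an ovarian adenocarcinoma. Each line was treated with the vehicle DMSO or with 5 µM BAY-850, a small-molecule inhibitor of the bromodomain protein ATAD2, for 48 h. There were 3 biological replicates in each of the 4 groups, giving 12 libraries, and where these replicates share a culture the spread between them may be technical in part. PA-1 was grown in DMEM and SK-OV-3 in RPMI, both with fetal bovine serum, so the line and its medium cannot be told apart, and each line stands for itself alone.

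Cells make cholesterol and fatty acids from acetyl-CoA. The transcription factors SREBP-1 and SREBP-2, encoded by SREBF1 and SREBF2, are made as membrane proteins of the endoplasmic reticulum (ER). When sterols are low, the escort protein SCAP carries them to the Golgi, where they are cut and released to the nucleus. When sterols are high, the proteins INSIG1 and INSIG2 hold SCAP in the ER. SREBP-2 mainly drives the genes of sterol synthesis and SREBP-1 those of fatty acid synthesis, and INSIG1 is itself a target. The measured quantity here is RNA, and none of the cutting steps can be read from it.

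Total counts ranged from 34544505 to 51840233 per library, and 17418 to 18403 genes had a count in 11 libraries. SK-OV-3 BAY-850 replicate 3 stood apart, with the highest total and only 15626 genes with a count, so the number of calls in SK-OV-3, and each of the 35 values that this library decides or moves by over 1.5 times, is also given without it. Summed markers of PA-1 (pluripotency genes such as POU5F1 and LIN28A) ranged from 1368 to 1644 CPM (counts scaled to library size) in PA-1 and from 6.48 to 10.4 in SK-OV-3, where DPPA4 and SOX2 were at 0 with DMSO and DPPA4 and LIN28B with BAY-850. Of these markers, DPPA4 (1.80 CPM) and L1TD1 (0.448 CPM) were also low in PA-1 with DMSO. Summed epithelial markers of SK-OV-3 ranged from 4128 to 4433 CPM with DMSO and from 2898 to 3360 with BAY-850, against 925 to 1054 in PA-1, and 4 of the 7 (KRT8, KRT19, ERBB2 and EPCAM) fell in SK-OV-3 with BAY-850. With DMSO, ERBB2 alone held 2417 CPM of the SK-OV-3 sum. KRT8 was close in the 2 lines (599 CPM in SK-OV-3, 532 in PA-1), and KRT18 was higher in PA-1 (335 against 266 CPM). The 3 leukocyte markers summed to less than 1 CPM in every library. The 4 fibroblast markers, nearly all COL1A1, summed to 425 to 614 CPM in PA-1, where COL1A1 rose with BAY-850 (0.33). In SK-OV-3 they summed to 169 to 180 CPM with DMSO and to 83.2 to 111 with BAY-850, and COL1A1 (-0.77) and LUM (-2.25) fell. DCN was at 0 in PA-1 with DMSO and in SK-OV-3 with BAY-850. The 3 endothelial markers summed to 34.4 to 41.5 CPM in PA-1 and to 2.73 to 4.25 in SK-OV-3. The part of these markers in the values of the 35 genes was not tested. In bulk RNA, fewer cells of a kind and less RNA per cell cannot be told apart.

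Promoter windows were available from RefSeq (GRCh38.p14) for 31 of the 35 genes, as 46 windows from 250 bases before to 50 bases after a start. Windows for ACAT2, FASN, FDFT1 and SQLE were not used here. The windows were searched on both strands for TCACNCCAC, a form of the sterol regulatory element, which SREBP binds, for CCAAT, the NF-Y motif (read as ATTGG on the other strand), for GGGCGG, the GC box that Sp1 binds, and for CACGTG, the E-box. Stretches of 5 promoters are shown because these genes carry the largest responses or encode the regulator itself. Each is given 5′ to 3′ on the plus strand, which is the strand of all 5 genes, with matches to the sterol element and to CCAAT in capitals.
SREBF2, chr22:41832957-41833018: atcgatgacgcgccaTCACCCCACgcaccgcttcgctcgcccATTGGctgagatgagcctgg
INSIG1, chr7:155297693-155297727: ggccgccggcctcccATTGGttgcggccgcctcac
INSIG2, chr2:118088372-118088451: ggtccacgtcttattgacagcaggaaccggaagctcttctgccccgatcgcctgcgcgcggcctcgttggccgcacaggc
SCD, chr10:100346989-100347066: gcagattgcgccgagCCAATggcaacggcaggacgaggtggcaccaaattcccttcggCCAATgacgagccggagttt
MSMO1, chr4:165327469-165327612: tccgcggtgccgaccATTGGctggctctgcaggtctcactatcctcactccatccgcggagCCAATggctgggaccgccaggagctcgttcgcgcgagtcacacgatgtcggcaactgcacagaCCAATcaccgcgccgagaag

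Among the 31 genes, this form of the sterol element was matched in SREBF2 alone, 133 to 125 bases before the start, with an NF-Y motif 106 to 102 bases before it. It was present in 1.12% of the 17368 windows of genes tested. The window of INSIG1 had 1 NF-Y motif, that of SCD had 2 and that of MSMO1 had 4, the last of which (34 to 30 bases before the start) lies outside the stretch shown, while the stretch of INSIG2 had none. CCAAT was found in 27 of the 46 windows (58.7%), against 34.3% of all windows of genes tested, and GGGCGG in 40 (87.0%) against 62.9%. CACGTG was found in 10.9% of the windows, those of INSIG1, LSS, SC5D and SCAP, against 8.84%. These are matches of letters within short windows and are given as a description of the sequences. Another planned form of the sterol element was not searched, so elements of other forms may be present.

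The response to BAY-850 involved fewer of the 35 genes in PA-1 than in SK-OV-3. A gene is said to have risen or fallen where its adjusted p in edgeR's quasi-likelihood test, adjusted over all genes tested in that line, was under 0.05. In PA-1, 6 genes rose (INSIG1, INSIG2, FASN, SCD, FADS2 and LSS) and 2 fell (GGPS1 and SC5D), while 27 did not pass. Of all 15212 genes tested in PA-1, 4.65% rose and 2.48% fell. In SK-OV-3, 20 of the 35 genes rose and only ACLY fell, while 14 did not pass. Of all 15348 genes tested in SK-OV-3, 10.8% rose and 9.56% fell. The median log2 fold change of the 35 genes was 0.013 in PA-1 and 0.37 in SK-OV-3, beside medians of -0.0019 and -0.0091 over all genes tested.

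INSIG1, INSIG2, SCD and FADS2 rose in both lines. GGPS1 fell in PA-1 and rose in SK-OV-3. A further 15 genes rose in SK-OV-3 without passing in PA-1, and 11 genes passed in neither line. All 3 BAY-850 libraries lay above all 3 DMSO libraries for 12 of the 35 genes in PA-1 and for 23 in SK-OV-3, where 14.1% and 18.1% of all genes tested did so. They lay below for 3 genes and 2 genes, where 13.3% and 20.5% of all genes tested did so.

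INSIG1 and INSIG2 had the largest log2 fold changes of the 35 genes in PA-1, and SCD and INSIG1 those in SK-OV-3. INSIG1, on chromosome 7 (GRCh38, 155297776 to 155310235, plus strand), was at 14.9, 12.7 and 13.3 CPM in the PA-1 libraries with DMSO and at 27.8, 27.0 and 25.6 with BAY-850. The SK-OV-3 libraries held 29.9, 32.4 and 29.5 CPM with DMSO and at 67.0, 63.2 and 69.8 with BAY-850. The groups did not overlap in either line, and INSIG1 rose in both on the log2 scale, by 0.98 (SE 0.089) in PA-1 and 1.14 (SE 0.076) in SK-OV-3. The level with BAY-850 in PA-1 (26.8 ± 1.12 CPM, SD, n = 3) was below the level with DMSO in SK-OV-3 (30.6 ± 1.61 CPM).

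INSIG2, the other ER retention protein, on chromosome 2 (118088452 to 118110997, plus strand), was at 65.0, 63.6 and 62.8 CPM in PA-1 with DMSO and at 118, 118 and 116 with BAY-850. In SK-OV-3 the levels were 33.5, 37.5 and 34.9 CPM with DMSO and at 44.0, 53.5 and 43.4 with BAY-850. INSIG2 thus rose in both lines without overlap, by 0.88 (SE 0.055) in PA-1 and 0.42 (SE 0.089) in SK-OV-3, and the difference between these responses (-0.47, SE 0.11) passed the limit. Per kilobase of the longest transcript, INSIG2 stood at 4.44 ± 0.309 times INSIG1 in PA-1 with DMSO and at 4.15 ± 0.145 times with BAY-850. In SK-OV-3 this ratio was 1.09 ± 0.0313 with DMSO and 0.669 ± 0.114 with BAY-850, so INSIG2 led in every PA-1 library and INSIG1 in every SK-OV-3 library with BAY-850.

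SREBF2, on chromosome 22 (41833079 to 41907308, plus strand), was at 122, 131 and 126 CPM in SK-OV-3 with DMSO and at 183, 189 and 175 with BAY-850, a rise of 0.55 (SE 0.051) on the log2 scale. In PA-1 it was at 288, 289 and 289 CPM with DMSO and at 311, 311 and 298 with BAY-850. The PA-1 groups did not overlap, but the change of 0.09 (SE 0.051) did not pass. The level in SK-OV-3 with BAY-850 remained under that of PA-1 with DMSO (183 ± 6.77 against 289 ± 0.497 CPM).

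SREBF1, on chromosome 17 (17810399 to 17837002, minus strand), was at 52.7, 52.7 and 59.8 CPM in PA-1 with DMSO and at 61.9, 65.6 and 65.8 with BAY-850. SK-OV-3 libraries stood at 22.7, 22.3 and 25.5 CPM with DMSO and at 33.8, 34.0 and 20.4 with BAY-850. The low value of 20.4 is that of replicate 3. SREBF1 passed in neither line, with log2 fold changes of 0.23 (SE 0.067) in PA-1 and 0.33 (SE 0.16) in SK-OV-3, and without SK-OV-3 BAY-850 replicate 3 the latter was 0.53 and past the limit. Without PA-1 DMSO replicate 3, the value in PA-1 was 0.29 and also passed.

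SCAP was at 82.8, 83.3 and 87.8 CPM in PA-1 with DMSO and at 90.8, 99.5 and 102 with BAY-850, a difference of 0.20 (SE 0.062) that did not pass but did (0.25) without PA-1 BAY-850 replicate 1. In SK-OV-3 it was at 50.4, 48.5 and 49.2 CPM with DMSO and at 54.8, 54.5 and 50.3 with BAY-850. These SK-OV-3 groups overlapped, and the log2 fold change of 0.12 (SE 0.063) did not pass.

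**Figure D1:**
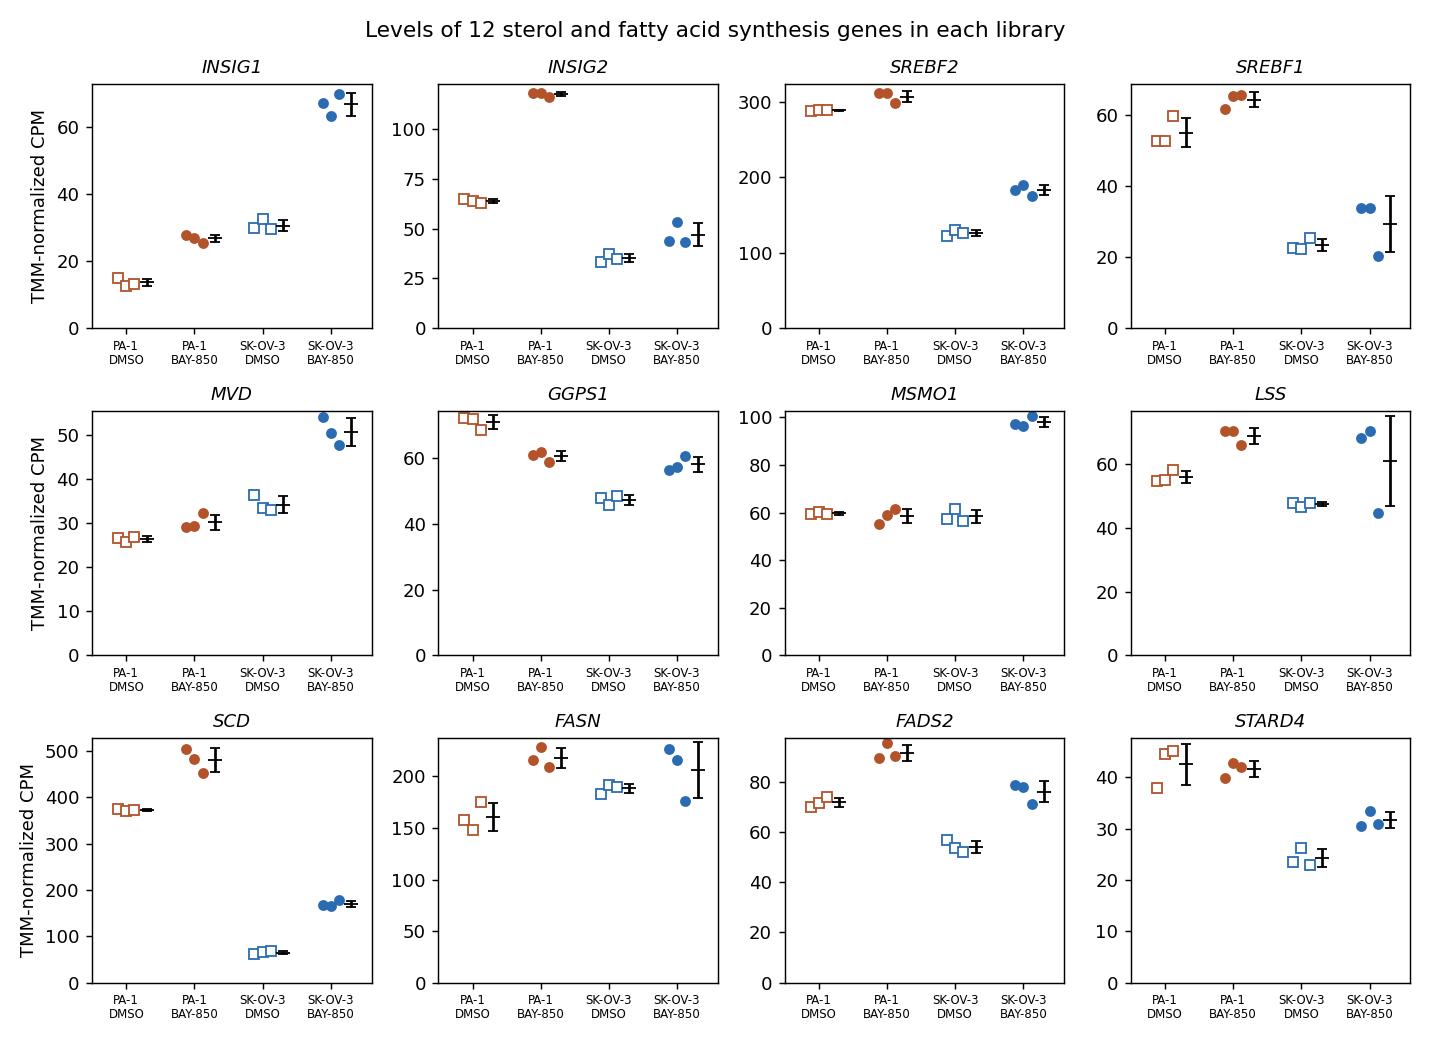
TMM-normalized CPM (y axis, from 0) of 12 of the genes in each library, by cell line and treatment, with open squares for DMSO, filled circles for BAY-850 and black bars for the mean and SD of 3 libraries. INSIG1, INSIG2, SCD and FADS2 are higher with BAY-850 in both lines, and SREBF1, LSS and FASN each have 1 low SK-OV-3 BAY-850 library, replicate 3.

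Of the 8 enzymes from acetyl-CoA to the isoprenoids, 0 rose and 1 fell in PA-1, with a median log2 fold change of -0.066, while 5 rose in SK-OV-3, with a median of 0.35. In PA-1, 1 of them was higher at an unadjusted p under 0.05 in edgeR's quasi-likelihood test, and 0 rose in DESeq2 or limma-voom. MVD, which makes isopentenyl diphosphate, was at 36.3, 33.3 and 32.9 CPM in SK-OV-3 with DMSO and at 54.0, 50.4 and 47.6 with BAY-850. It rose there by 0.58 (SE 0.075), the largest change of the group. In PA-1, MVD was at 26.6, 25.7 and 26.9 CPM with DMSO and at 29.1, 29.2 and 32.2 with BAY-850, which did not overlap but did not pass (0.19, SE 0.073).

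The thiolase ACAT2, which makes acetoacetyl-CoA, rose in SK-OV-3 by 0.49 (SE 0.080) and had a log2 fold change of -0.04 in PA-1. IDI1, the isomerase of isopentenyl diphosphate, rose in SK-OV-3 by 0.37 (SE 0.060), against -0.20 (SE 0.083) in PA-1. IDI1 passed as a fall in PA-1 without DMSO replicate 3 (-0.29). FDPS, the synthase of farnesyl diphosphate, rose in SK-OV-3 by 0.34 (SE 0.072) and stood at 0.01 in PA-1. The other members of this group that did not pass in SK-OV-3 were HMGCS1 (HMG-CoA synthase, 0.09), MVK (mevalonate kinase, 0.38, SE 0.13, past the limit at 0.45 without DMSO replicate 1) and PMVK (phosphomevalonate kinase, 0.012, and 0.045 without BAY-850 replicate 3).

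GGPS1 makes geranylgeranyl diphosphate, the lipid attached to many small GTPases, and stands on a branch that does not lead to cholesterol. It was at 72.2, 71.8 and 68.4 CPM in PA-1 with DMSO and at 61.0, 61.7 and 58.7 with BAY-850, a fall by 0.23 (SE 0.058) on the log2 scale. The SK-OV-3 libraries held 47.9, 45.6 and 48.3 CPM with DMSO and at 56.2, 57.0 and 60.6 with BAY-850, and rose by 0.31 (SE 0.068). The groups did not overlap in either line, and the 2 lines moved towards each other. The fall in PA-1 was near the limit, since it no longer passed without 5 of the 6 libraries in turn (from -0.25 to -0.21 over all 6) or after the trend on GC content was removed (-0.13). The rise in SK-OV-3 no longer passed without DMSO replicate 2 (0.29). GGPS1 overlaps TBCE on the same strand and ARID4B on the opposite strand, and how its counts were divided from theirs is not given in the sources used here.

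From squalene to cholesterol, 1 of 11 enzymes rose (LSS) and 1 fell (SC5D) in PA-1, with a median of -0.0048, while 5 rose and 0 fell in SK-OV-3, with a median of 0.38 (0 were lower at an unadjusted p under 0.05 in edgeR, where 16.2% of all genes tested were, and 0 fell in DESeq2 or limma-voom). MSMO1, a monooxygenase that acts in the removal of methyl groups from the sterol ring, was at 57.3, 61.6 and 56.3 CPM in SK-OV-3 with DMSO and at 97.0, 96.4 and 100.4 with BAY-850. In PA-1 it was at 59.2, 60.4 and 59.4 CPM with DMSO and at 55.2, 59.1 and 61.3 with BAY-850. MSMO1 rose by 0.76 (SE 0.063) in SK-OV-3 and had a log2 fold change of -0.03 (SE 0.062) in PA-1.

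DHCR7, a late sterol reductase, rose in SK-OV-3 by 0.69 (SE 0.078), from 25.9 ± 1.72 to 41.4 ± 0.993 CPM (SD, n = 3). FDFT1, the squalene synthase, rose there by 0.55 (SE 0.061), from 116 ± 3.11 to 168 ± 14.1 CPM. CYP51A1, the lanosterol demethylase, rose by 0.53 (SE 0.067) and SQLE, the squalene epoxidase, by 0.38 (SE 0.081). In PA-1 these 4 genes had log2 fold changes between -0.03 and 0.08, and their groups overlapped.

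LSS, the lanosterol synthase that closes the ring, was at 54.7, 55.0 and 58.3 CPM in PA-1 with DMSO and at 70.3, 70.3 and 65.9 with BAY-850, a rise of 0.30 (SE 0.060) that no longer passed without DMSO replicate 2 (0.29) or without BAY-850 replicate 2 (0.29). The rise also did not pass with scaling by library size only (0.26) or in 1 fit of all 12 libraries (0.30). In SK-OV-3 the levels were 47.8, 46.6 and 47.8 CPM with DMSO and at 68.2, 70.3 and 44.8 with BAY-850. The value of 44.8 is that of replicate 3. LSS did not pass in SK-OV-3 (0.37, SE 0.13) and passed there without that library (0.55).

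SC5D, a sterol desaturase, fell in PA-1 by 0.22 (SE 0.059), from 164 ± 9.27 to 140.0 ± 4.66 CPM, without overlap. The fall no longer passed without 5 of the 6 libraries in turn (from -0.26 to -0.18 over all 6) or after the trend on GC content was removed (-0.10). In SK-OV-3 SC5D did not pass (0.24, SE 0.089), and its value was 0.11 without BAY-850 replicate 3. HSD17B7, a sterol ketoreductase, had a log2 fold change of -0.27 (SE 0.11) in PA-1 and of 0.52 (SE 0.19) in SK-OV-3, neither past the limit, although without SK-OV-3 BAY-850 replicate 3 the latter (0.58) passed. A named pseudogene, HSD17B7P2, is also in the table and may share its reads. EBP, TM7SF2 and NSDHL, which act on the rings of late sterols, passed in neither line, with values from -0.28 for EBP in SK-OV-3 to 0.19 for TM7SF2 in SK-OV-3. Both of these rested on SK-OV-3 BAY-850 replicate 3, since without it EBP was at -0.063, TM7SF2 at 0.017 and NSDHL at 0.20 (0.019 with it).

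Summed over the 19 enzymes of the mevalonate and sterol steps, the level was 969, 962 and 943 CPM in PA-1 with DMSO and 922, 937 and 923 with BAY-850. It was 950.3, 946 and 950.5 CPM in SK-OV-3 with DMSO and 1228, 1234 and 1194 with BAY-850. The sums were thus close in both lines with DMSO (958 ± 13.2 and 949 ± 2.28 CPM, SD, n = 3), slightly lower with BAY-850 in PA-1 (927 ± 8.53 CPM) and higher with BAY-850 in SK-OV-3 (1219 ± 21.5 CPM), without overlap within either line. SK-OV-3 BAY-850 replicate 3 had the lowest of the 3 sums and still lay above every DMSO library. In PA-1, SC5D (164 to 140.0 CPM) and GGPS1 (70.8 to 60.5 CPM) fell among the 19 enzymes, and LSS rose (56.0 to 68.8 CPM). Neither fall passed once the trend on GC content was removed.

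**Figure D2:**
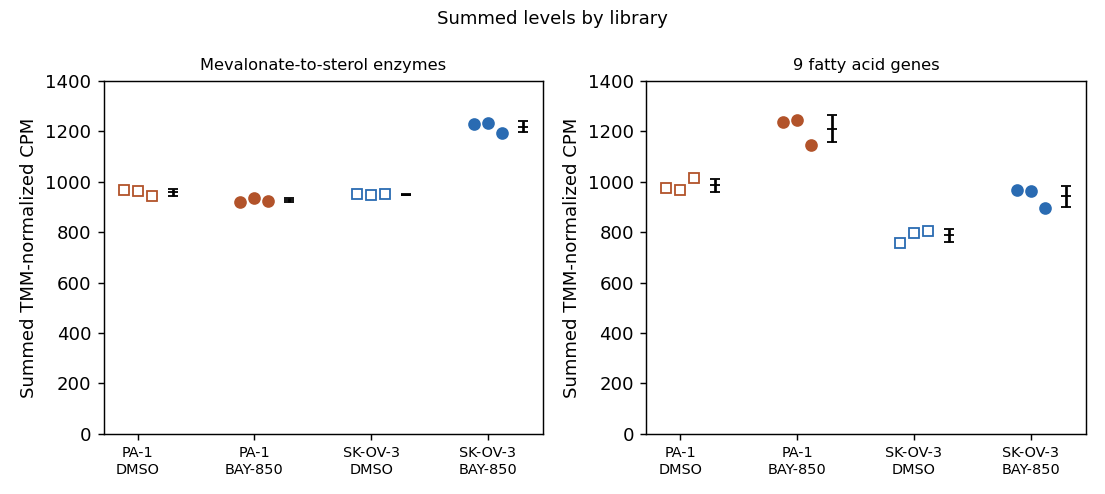
Summed TMM-normalized CPM (y axis, from 0) of the 19 mevalonate-to-sterol enzymes (left) and of the 9 fatty acid genes (right) in each library, with open squares for DMSO, filled circles for BAY-850 and bars for the mean and SD of 3 libraries. The sterol sum rises to 1219 CPM in SK-OV-3 with BAY-850 and stays between 922 and 969 CPM in PA-1, while the fatty acid sum is higher with BAY-850 in both lines.

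Neither of the 2 proteins of sterol movement passed in PA-1 (0 at an unadjusted p under 0.05 in edgeR, and 0 past the limit in DESeq2 or limma-voom). STARD4, which carries cholesterol through the cytosol, was at 38.0, 44.5 and 45.2 CPM in PA-1 with DMSO and at 40.0, 42.9 and 42.0 with BAY-850. SK-OV-3 libraries stood at 23.6, 26.3 and 23.0 CPM with DMSO and at 30.6, 33.5 and 31.0 with BAY-850. STARD4 rose in SK-OV-3 by 0.40 (SE 0.086) without overlap, and its PA-1 groups overlapped (-0.03, SE 0.075). TMEM97, an ER and lysosomal membrane protein, lay lower in all 3 SK-OV-3 BAY-850 libraries than with DMSO (20.3 ± 1.11 against 24.3 ± 2.25 CPM), but its log2 fold change of -0.25 (SE 0.100) did not pass, and it stood at 0.01 in PA-1.

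Of the 9 fatty acid genes, 3 rose in PA-1 with a median log2 fold change of 0.20, and 6 rose and 1 fell in SK-OV-3 with a median of 0.35. SCD, the desaturase that makes monounsaturated fatty acids, on chromosome 10 (100347124 to 100364834, plus strand), was at 374, 370.4 and 372 CPM in PA-1 with DMSO and at 504, 484 and 452 with BAY-850. In SK-OV-3 it was at 61.3, 65.9 and 67.8 CPM with DMSO and at 167, 166 and 178 with BAY-850. SCD rose in both lines without overlap, by 0.37 (SE 0.054) in PA-1 and by 1.40 (SE 0.063) in SK-OV-3, a 2.65-fold rise and the largest of the 35 genes. The difference of 1.02 (SE 0.076) between these responses passed the limit, and the SK-OV-3 level with BAY-850 (170.3 ± 6.58 CPM) still lay under the PA-1 level with DMSO (372 ± 1.92 CPM).

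FASN, the fatty acid synthase, was at 158, 149 and 176 CPM in PA-1 with DMSO and at 216, 228 and 209.6 with BAY-850, and rose there by 0.44 (SE 0.066). The SK-OV-3 libraries held 183, 192 and 189.7 CPM with DMSO and at 227, 216 and 176 with BAY-850. Replicate 3 of the SK-OV-3 BAY-850 libraries lay under all 3 DMSO libraries, and FASN passed in SK-OV-3 without it (0.23) but not with it (0.14, SE 0.075). ACLY, which makes cytosolic acetyl-CoA from citrate, had a log2 fold change of 0.20 (SE 0.059) in PA-1, short of the limit, and fell in SK-OV-3 by 0.16 (SE 0.051). The ACLY responses differed between the lines (-0.37, SE 0.078). Its fall in SK-OV-3 no longer passed without 5 of the 6 libraries in turn (from -0.18 to -0.13 over all 6), and in PA-1 it passed as a rise without DMSO replicate 3 or without BAY-850 replicate 3 (0.23 each). ACACA, the acetyl-CoA carboxylase, did not pass in PA-1 (0.22, SE 0.064), where it passed without BAY-850 replicate 3 (0.27), or in SK-OV-3 (-0.080, SE 0.076, and -0.047 without BAY-850 replicate 3).

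FADS2, the first desaturase of polyunsaturated fatty acids, was at 70.1, 71.7 and 73.9 CPM in PA-1 with DMSO and at 89.6, 95.4 and 90.2 with BAY-850. In SK-OV-3 the levels were 56.9, 53.7 and 52.0 CPM with DMSO and at 78.9, 78.1 and 71.3 with BAY-850. FADS2 rose in both lines without overlap, by 0.35 (SE 0.058) and 0.50 (SE 0.065). FADS1, which acts after FADS2, rose in SK-OV-3 by 0.29 (SE 0.054) and stood at 0.11 (SE 0.065) in PA-1. The 2 genes overlap on opposite strands, the libraries keep the strand, and whether the counting used it is not given in the sources used here, so part of the reads may be shared.

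LPIN1, a phosphatidate phosphatase of triglyceride synthesis, rose in SK-OV-3 by 0.53 (SE 0.097), from 29.0 ± 3.71 to 41.4 ± 1.90 CPM (SD, n = 3), and stood near 6 CPM in PA-1 with either treatment (-0.14, SE 0.16). ACSS2, which makes acetyl-CoA from acetate, rose in SK-OV-3 by 0.35 (SE 0.079) and no longer passed without DMSO replicate 2 (0.33). ELOVL6, which lengthens saturated fatty acids, rose in SK-OV-3 by 0.46 (SE 0.13) from a low level of 7.93 ± 0.330 CPM, and no longer passed without any 1 of 5 libraries (from 0.40 to 0.51 over all 6 left out in turn). In PA-1 ELOVL6 was at 50.5 ± 1.65 CPM with DMSO and 51.9 ± 1.89 with BAY-850. Per kilobase, SCD stood at 8.87 ± 0.336 times ELOVL6 in PA-1 with DMSO and 11.1 ± 0.411 times with BAY-850, and the ratio rose from 9.87 ± 0.161 to 19.0 ± 2.33 in SK-OV-3, without overlap in either line.

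The summed level of the 9 fatty acid genes was 976, 966 and 1015 CPM in PA-1 with DMSO and 1237, 1245 and 1148 with BAY-850. In SK-OV-3 it was 758, 796 and 806 CPM with DMSO and 969, 964 and 895 with BAY-850. Both lines thus had higher sums with BAY-850, without overlap, which the sterol sum showed in SK-OV-3 alone. SCD took the largest part of this sum in PA-1, with 372 of 986 CPM with DMSO. In SK-OV-3 it made up 65.0 of 787 CPM with DMSO and 170.3 of 943 CPM with BAY-850. Without SCD the sums still did not overlap in PA-1. In SK-OV-3 they then overlapped, through BAY-850 replicate 3, so the separation there rested on SCD.

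Leaving out SK-OV-3 BAY-850 replicate 3 gave 24 of the 35 genes higher in SK-OV-3 and no gene lower. The genes gained were SREBF1, LSS, HSD17B7 and FASN, and ACLY (-0.13) was lost. The 20 genes that rose with all 6 libraries were also higher without it. SCD then had a log2 fold change of 1.36, INSIG1 of 1.09 and MSMO1 of 0.73, each within 0.05 of the value with all libraries.

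A test of the difference between the responses of the lines was run in 1 fit of all 12 libraries. The response of 16 of the 35 genes was higher in SK-OV-3 than in PA-1 and that of 2 genes, INSIG2 and ACLY, was lower, where 6.7% and 7.77% of the 16830 genes tested were higher and lower. By role, the response was higher in SK-OV-3 for SREBF2 among the regulators, for 5 of 8 mevalonate and isoprenoid enzymes, for 6 of 11 squalene and sterol enzymes, for STARD4, and for SCD, LPIN1 and ELOVL6 among the fatty acid genes. The largest differences were those of SCD (1.02), HSD17B7 (0.78, SE 0.21) and MSMO1 (0.77, SE 0.081). For INSIG1 the difference was 0.15 (SE 0.11) and did not pass, which does not show that the lines responded alike. The median difference over the 35 genes was 0.32, beside -0.02 over all genes tested.

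The levels of the 35 genes with DMSO differed widely between the lines. The BAY-850 responses known when the genes were chosen share these DMSO libraries, so this comparison is not fully apart from that choice. In SK-OV-3, 13 genes were higher and 18 lower than in PA-1, and 4 (LSS, MSMO1, SC5D and ACSS2) did not pass. Such differences were the rule, as 38.3% of the 16830 genes tested were higher and 38.1% lower. Among the fatty acid genes, ELOVL6 was lower in SK-OV-3, with a log2 difference of -2.67 (7.93 against 50.5 CPM, adjusted p = 7.99e-14 in edgeR's quasi-likelihood test), and so was SCD, with -2.52 (65.0 against 372 CPM, adjusted p = 1.82e-15). LPIN1 was higher in SK-OV-3 by 2.14 (29.0 against 6.54 CPM, adjusted p = 3.30e-10), and ACLY by 1.11 (215 against 99.3 CPM, adjusted p = 3.39e-11).

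Among the regulators, SREBF1 (-1.23, adjusted p = 1.09e-06), SREBF2 (-1.19, adjusted p = 1.60e-12), SCAP (-0.78, adjusted p = 7.95e-09) and INSIG2 (-0.85, adjusted p = 3.84e-08) were lower in SK-OV-3, while INSIG1 was higher (1.17, adjusted p = 1.56e-09). The mevalonate and isoprenoid enzymes were mostly higher in SK-OV-3, with 6 of 8 higher, led by HMGCS1 (0.93, adjusted p = 2.23e-09) and ACAT2 (0.87, adjusted p = 1.23e-07), and PMVK and GGPS1 lower. The late sterol enzymes were mostly lower there. EBP (-2.18, adjusted p = 3.27e-08), HSD17B7 (-1.81, adjusted p = 1.88e-08) and TM7SF2 (-1.27, adjusted p = 2.49e-07) had the largest differences of the 6 that were lower, and NSDHL (0.91) and SQLE (0.48) were higher. STARD4 (-0.81) and TMEM97 (-0.99) were both lower.

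FASN (0.23) no longer passed in this comparison without PA-1 DMSO replicate 1 or 2 (0.22 and 0.18), and FDFT1 (-0.16) without PA-1 DMSO replicate 1 or SK-OV-3 DMSO replicate 3 (-0.15 and -0.14). LSS and SC5D passed as lower without SK-OV-3 BAY-850 replicate 3, which changes only the estimate of the spread in this comparison.

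**Figure D3:**
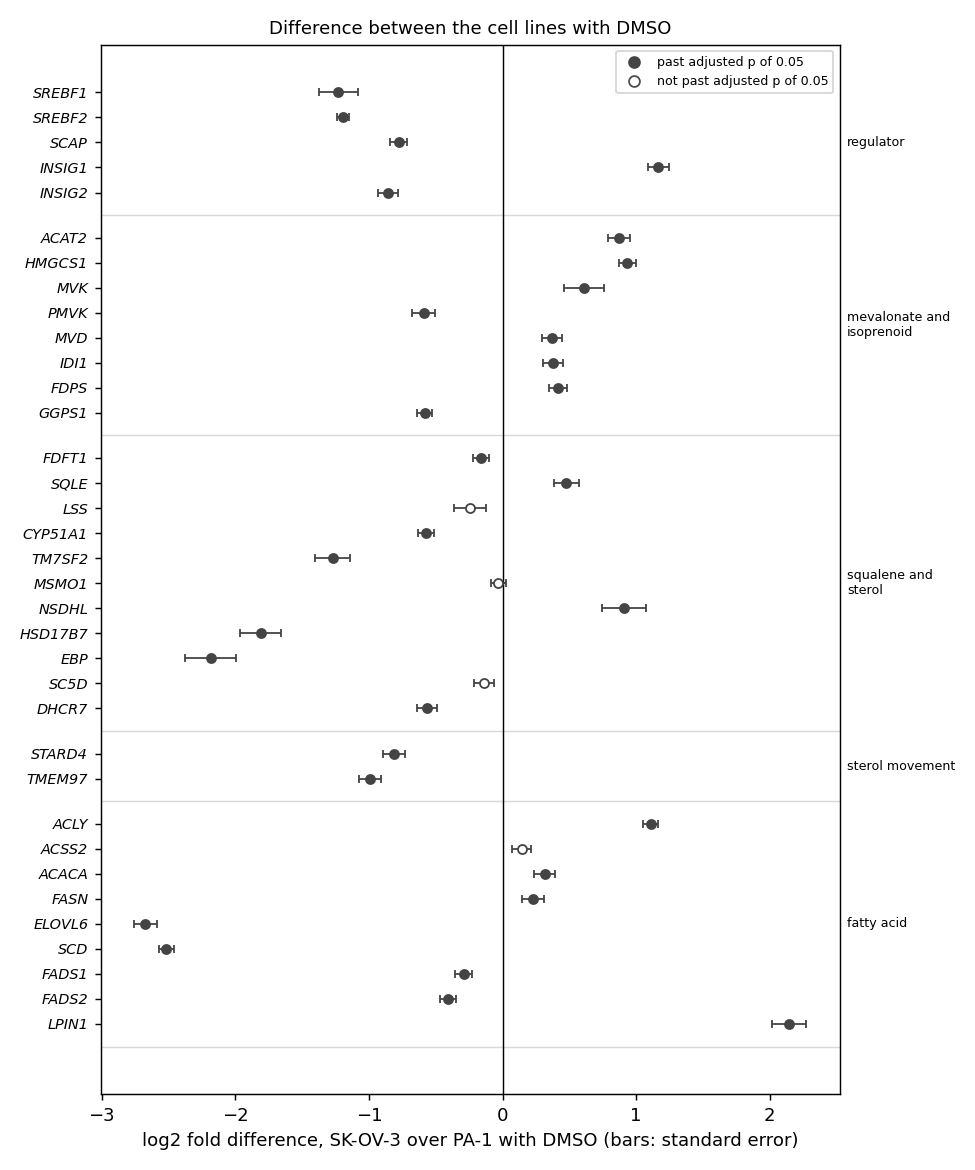
Log2 fold difference of each of the 35 genes between SK-OV-3 and PA-1 with DMSO (x axis), with bars for the standard error and filled points for genes past an adjusted p of 0.05. Mevalonate genes lie mostly to the right (higher in SK-OV-3) and late sterol genes mostly to the left, and ELOVL6, SCD and EBP lie farthest to the left.

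Per kilobase of the longest transcript, the order of levels also differed between the lines. In PA-1 with DMSO, SCD (69.4 ± 0.359 CPM per kilobase, SD, n = 3) and SC5D (66.6 ± 3.77) stood highest and did not differ beyond their spread, followed by SREBF2 (50.6 ± 0.0872) and FDFT1 (48.6 ± 1.22). LPIN1 (1.15 ± 0.207) and MVK (1.65 ± 0.180) stood lowest. In SK-OV-3 with DMSO, SC5D (60.5 ± 3.67) stood highest, before ACLY (49.4 ± 1.38) and FDFT1 (43.5 ± 1.17), and ELOVL6 (1.23 ± 0.0511) and HSD17B7 (1.28 ± 0.195) stood lowest, within each other's spread. With BAY-850, SCD stood at 31.8 ± 1.23 CPM per kilobase in SK-OV-3, up from 12.1 ± 0.617, and MSMO1 at 43.2 ± 0.959, up from 25.7 ± 1.24.

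Lists of other genes of lipid metabolism were also drawn up with results of the data known and are given by counts. In PA-1, 0 genes of the lists passed in edgeR's quasi-likelihood test. At an unadjusted p under 0.05, 3 of 21 other synthesis genes were higher and 4 lower there, against 2 and 0 of 8 cleavage and degradation genes, 3 and 1 of 11 export and lysosome genes, and 2 and 4 of 18 oxidation genes, where 12.7% of all genes tested in PA-1 were higher and 11.1% lower. DESeq2 passed 1, 0, 1 and 1 genes of these lists in PA-1, and limma-voom passed 0 of each. Of the 21 other synthesis genes, 7 rose in SK-OV-3, with a median of 0.049 (-0.078 in PA-1). The largest rises were those of MID1IP1, an activator of acetyl-CoA carboxylase (0.59, SE 0.074), and OXSM, of mitochondrial fatty acid synthesis (0.59, SE 0.18). OXSM was at a low level, with 4.52 CPM with DMSO and 6.74 with BAY-850 in SK-OV-3. Of 8 genes for SREBP cleavage and sterol-regulated degradation in the ER, 2 passed in SK-OV-3, where RNF145, a ubiquitin ligase, rose by 0.23 (SE 0.059) and ERLIN2 fell by 0.24 (SE 0.072). These 12.5% higher and 12.5% lower are near the 10.8% and 9.56% of all genes tested in SK-OV-3.

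Of 11 genes for sterol export, storage, lysosomal release and the receptor LXR, 5 rose in SK-OV-3, with a median of 0.24 (0.081 in PA-1). Of all genes tested in SK-OV-3, 10.8% rose, and with limma-voom 4 of the 11 genes rose. NPC1, which moves cholesterol out of the lysosome, was at 94.7, 98.2 and 101 CPM in SK-OV-3 with DMSO and at 207, 216 and 179 with BAY-850, and rose by 1.04 (SE 0.066). NPC2, its soluble partner, rose by 0.54 (SE 0.098), LIPA, the lysosomal acid lipase, by 0.50 (SE 0.11), MYLIP, a ubiquitin ligase induced by LXR, by 0.54 (SE 0.15) and NR1H2, an LXR, by 0.24 (SE 0.063). The sterol exporters ABCA1 and ABCG1 and the other LXR, NR1H3, were not among these 5. With DMSO and with BAY-850, SK-OV-3 held ABCA1 at 44.7 ± 4.80 and 48.2 ± 4.53 CPM and ABCG1 at 1.37 ± 0.469 and 1.27 ± 0.163. NR1H3 was at 6.97 ± 0.330 and 6.79 ± 1.19 CPM, and the activity of LXR was not tested. Fatty acid oxidation showed both directions in SK-OV-3, with 5 of 19 genes higher and 4 lower, where 10.8% and 9.56% of all genes tested were. PDK4, which holds back pyruvate dehydrogenase, rose most (0.70, SE 0.16), followed by the receptor PPARA (0.45, SE 0.097). The level of PDK4 was low, at 5.42 CPM with DMSO and 8.70 with BAY-850, and it was not tested in PA-1.

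**Figure D4:**
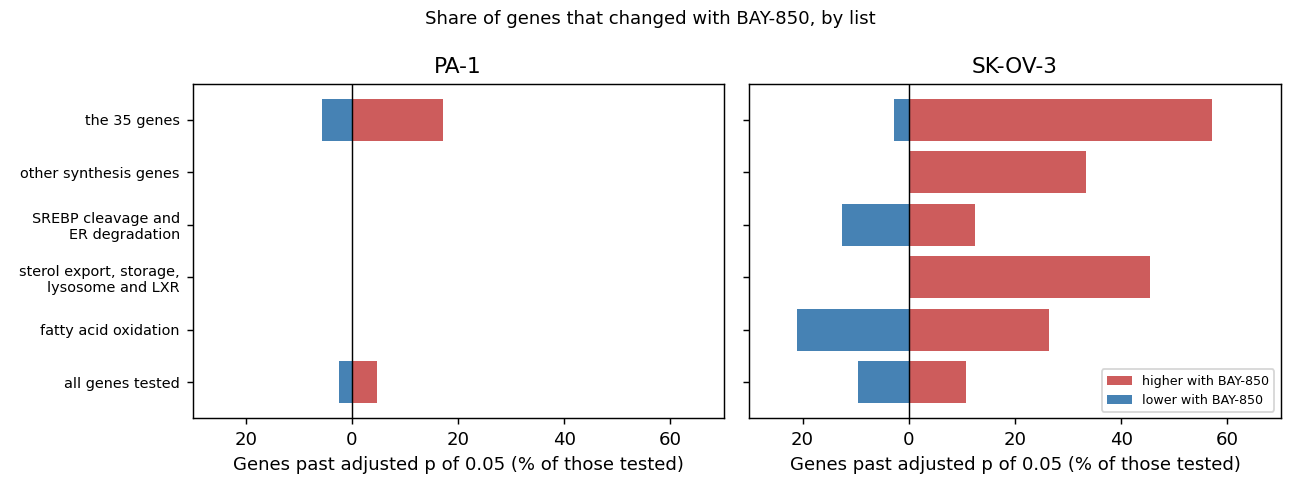
Share of the genes tested in each list that rose (red, right of 0) or fell (blue, left of 0) with BAY-850 (x axis, %), in PA-1 (left) and SK-OV-3 (right), with all genes tested in the bottom row. In PA-1 only the 35 genes and the bottom row have bars, and in SK-OV-3 the bar of the 35 genes reaches 57.1% on the right.

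Across 14298 genes, which share their libraries and are no replicates, the log2 fold change in PA-1 went with the GC content of the transcripts, with a Spearman's rho of 0.365. The median log2 fold change was -0.13 in the lowest decile of GC content and 0.12 in the highest. In SK-OV-3 the rho was 0.0917. The median GC content of the 35 genes was 50.1%, from 34.2% for STARD4 to 65.3% for FASN, beside 48.8% for all genes tested in PA-1. GGPS1 (40.4%) and SC5D (38.6%) lost their calls in PA-1 once this trend was removed, whereas the 6 genes that rose kept theirs, INSIG2 (35.4%) among them. The other calls of the 35 genes within the lines were the same with the trend removed, except that SC5D then passed as a rise in SK-OV-3 (0.25).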

How the data were processed

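The deposited table holds the authors' expected counts per gene symbol from RSEM 1.2.15 with Bowtie2 2.1.0 on hg38, tools and build that the submitters' processing notes name, with no normalization between libraries. The annotation and the strand setting of the counting are not given in the sources used here. The methods describe oligo-dT purification, the record's design text names ribosomal RNA depletion, and ribosomal RNA genes held 7.94% to 16.9% of counts. RSEM divides reads that fit several genes, so genes with copies or overlapping neighbours are uncertain.

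Expected counts were rounded, scaled by TMM and tested by edgeR's quasi-likelihood test (edgeR 4.0.16, R 4.3.3) within each line, on genes that filterByExpr kept, with Benjamini-Hochberg adjustment over all genes tested. The difference between the lines and its change with BAY-850 were tested in 1 fit of all 12 libraries. A standard error is the log2 fold change divided by the root of the F statistic. Levels are TMM-normalized CPM over all 12 libraries. The pipeline was tested on simulated data. Gene counts varied between replicates by a biological coefficient of variation of 0.0916 (PA-1), 0.144 (SK-OV-3) and 0.123 (all libraries). No 2 replicates were 1 library deposited again (chi-square per degree of freedom from 4.96 to 68.4). For a single gene, the smallest two-sided p of an exact permutation test in groups of 3 is 0.1.

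The 35 genes and the other lists were chosen with earlier results of these data known. Values in every library are given for the regulators, for genes past an adjusted p of 0.05 in both lines and for the gene of each role with the largest change in each line. Alternatives were RLE factors, library size only, no filter, at least 10 counts in every library, DESeq2 1.42.0, limma-voom (limma 3.58.1), the replicate number as a block, removal of the GC trend (loess span of 0.5), all 12 libraries in 1 fit and leaving out each library. Scaling by library size without ribosomal RNA genes was chosen after seeing the data. Total counts of 34544505 to 51840233 per library limit the precision of genes at a few CPM. Positions, transcript lengths and GC content were taken from GENCODE on GRCh38, matched for 23899 of the 26475 symbols and for all 35 genes.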

Additional observations from a re-analysis of the deposited data

Results flagged for a closer look

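For 18 of the 35 genes, the response to BAY-850 differed between SK-OV-3 and PA-1 by a test of the difference itself, 16 with a higher and 2 with a lower response in SK-OV-3, where 6.7% and 7.77% of the 16830 genes tested were higher and lower. These genes were chosen with the responses known, so the values are a description.

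The differences on the log2 scale were 0.52 for ACAT2, 0.38 for MVD, 0.56 for IDI1, 0.32 for FDPS and 0.52 for GGPS1 among the mevalonate and isoprenoid enzymes. They were 0.57 for FDFT1, 0.51 for CYP51A1, 0.77 for MSMO1, 0.78 for HSD17B7, 0.45 for SC5D and 0.60 for DHCR7 among the squalene and sterol enzymes. The transcription factor gene SREBF2 differed by 0.44 and the sterol carrier STARD4 by 0.42. Among the fatty acid genes, SCD differed by 1.02, LPIN1 by 0.66 and ELOVL6 by 0.41. INSIG2 (-0.47) and ACLY (-0.37) had the lower response in SK-OV-3.

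HSD17B7 passed in this difference while its response passed in neither line alone, with levels of 13.9 ± 0.436 and 11.5 ± 1.14 CPM in PA-1 and of 3.95 ± 0.604 and 5.64 ± 0.440 CPM in SK-OV-3 (SD, n = 3, with DMSO and with BAY-850). FDPS no longer passed when any 1 of 8 libraries was left out (PA-1 DMSO replicate 1 or 3, PA-1 BAY-850 replicate 1 or 2, SK-OV-3 DMSO replicate 2 or 3, SK-OV-3 BAY-850 replicate 2 or 3, with values from 0.26 to 0.38 over all 12 left out in turn), and STARD4 no longer passed without any 1 of 5 libraries (PA-1 DMSO replicate 2 or 3, PA-1 BAY-850 replicate 1, SK-OV-3 DMSO replicate 3, SK-OV-3 BAY-850 replicate 2, with values from 0.38 to 0.49 over all 12) or once the GC trend was removed (0.29). ELOVL6 was lost without PA-1 DMSO replicate 2 (0.39), PA-1 BAY-850 replicate 2 (0.39) or SK-OV-3 DMSO replicate 1 (0.37), LPIN1 without PA-1 DMSO replicate 2 (0.50) or PA-1 BAY-850 replicate 1 (0.64), and HSD17B7 without PA-1 BAY-850 replicate 1 (0.70). MVD was lost without any 1 of 4 libraries (PA-1 DMSO replicate 1, PA-1 BAY-850 replicate 1 or 2, SK-OV-3 DMSO replicate 3, with values from 0.34 to 0.42 over all 12). A difference passed newly for SQLE without PA-1 DMSO replicate 3 or SK-OV-3 BAY-850 replicate 3 (0.46 each), for FASN without PA-1 DMSO replicate 3 (-0.38) or SK-OV-3 BAY-850 replicate 1 (-0.37), and for ACACA without PA-1 BAY-850 replicate 3 (-0.36) or SK-OV-3 DMSO replicate 1 (-0.39).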

How the results depend on the processing

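Over the 35 genes and all comparisons, 2467 of 2590 values under an alternative kept their side of the limit, 55 gained a call, 68 lost one, and no called value changed sign. Values past the limit in neither fit could change sign and still count as kept. Of the 35 genes, 22 were above 0 in PA-1 in the main fit and 17 with library size only. In PA-1, the 6 genes that rose became 10 with no filter on low counts, with at least 10 counts in every library or with DESeq2, and 5 to 8 when each library was left out. They became 7 with limma-voom, and 5 with library size only or in 1 fit of all 12 libraries, where LSS was lost. The 2 that fell became 0 with library size only or with the GC trend removed, 1 in 1 fit of all 12 libraries, and 0 to 2 when each library was left out. In SK-OV-3, the 1 that fell became 0 with library size only or no filter, 2 in 1 fit of all 12 libraries, and 0 to 1 when each library was left out, while 17 to 24 rose. For the difference in response, the 2 lower genes became 1 with library size only, 4 with at least 10 counts in every library or with DESeq2, and 2 to 3 when each library was left out, with 11 to 16 higher. The difference with DMSO gave 12 to 13 higher and 17 to 20 lower when each library was left out, and 14 higher with the GC trend removed or with the scaling without ribosomal RNA genes, where ACSS2 (0.18 in both) passed. The causes were not tested.

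Deviations of same-numbered libraries of a line had correlations from -0.0277 to 0.0042, so no strong effect shared by replicate number was seen. Whether the samples were set up in pairs cannot be told from these values. With the replicate block, 6 genes rose and 1 fell in PA-1, 21 rose and 0 fell in SK-OV-3, and the difference in response held 14 higher and 2 lower. The calls not made with the block were GGPS1 in PA-1 (-0.23), ACLY in SK-OV-3 (-0.16), and FDPS (0.32) and ELOVL6 (0.41) in the difference, and SC5D (0.23) passed in SK-OV-3. The added scaling without ribosomal RNA genes gave 6 and 2 in PA-1 and 20 and 1 in SK-OV-3. Depth limits the genes at low counts, such as EBP and HSD17B7 in SK-OV-3 (5.88 and 3.95 CPM with DMSO).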
